A study of Mus musculus with 8 samples.

Results

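The control peaks described here are regions of N6-methyladenosine (m6A) enrichment in mouse embryonic stem cells that met several Dox peaks on the same strand. A control peak was a member when its exonic blocks summed to under 1000 nt and shared at least 1 nt with 2 or more distinct peaks of the Dox table. The members were thus chosen by the called bounds of peaks in both tables. Of 25812 distinct control peaks, 25306 were under 1000 nt, and 1157 of these (4.57%) were members, on 829 gene identifiers. Another 19168 met exactly 1 Dox peak and 4981 (19.7%) met none. In the Dox cells knockdown of Setd2 was induced with 1 µg/ml doxycycline for 4 days, and the control cells carried the same inducible knockdown and received no doxycycline. Both kinds of cell grew without feeders, as spheres, in medium with 1 µM of the MEK inhibitor PD0325901, 3 µM of the GSK3 inhibitor CHIR99021 and 1000 U/ml LIF. The Dox groups were 2 m6A immunoprecipitated (IP) libraries and 2 input libraries, and the control groups had the same numbers. Doxycycline was not given to cells without the knockdown in the samples used here, so the agent and the loss of Setd2 cannot be told apart.

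m6A is placed on messenger RNA as it is transcribed, by a complex built around METTL3 and METTL14 with adaptor subunits such as WTAP, RBM15 and ZC3H13, mostly at adenosines in a DRACH context, whose commonest core is GGAC. SETD2 is the enzyme that trimethylates histone H3 at lysine 36 along transcribed genes, and that mark is known as a guide for the m6A writers. In m6A-seq, fragments pulled down by an antibody pile up around a modified base, and a peak caller marks the stretch of exon where the IP exceeds the input. A stretch between peaks is one that was not called, which is not the same as one without m6A.

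Short stretches of sequence give examples of the covered and uncovered parts of such peaks. The sequences come from the RefSeq windows around gene starts (GRCm38.p6, 250 bases before to 50 bases after the start), so they sample members near a gene's start only. In all, 10 gaps lay wholly inside a window, and the genes shown are the 6 of these with a GGAC in a covered stretch, plus Tsen34, the single gene with a GGAC in such a gap. The covered stretches were picked because they hold GGAC, in capitals, so the pairs show no difference in how often it occurs. The base after GGAC was not considered, and in the Tlnrd1 stretch it is G, which DRACH does not allow. The second of each pair is the middle 30 bases of the gap that no Dox peak covered.
Copa, covered: accgggagcggcgGGACccgctaacctgac
Copa, gap: gcatcgtctctgtggcccagcgctccagag
Tlnrd1, covered: ccgggggcgaggcGGACgccaggaggcgaa
Tlnrd1, gap: cagccacgccctcggcccagtggccgccca
Use1, covered: tcagggcctacatGGACtacagagactctg
Use1, gap: gaataaactgcggcttgaaataaaactcta
Misp3, covered: ccagttgagcaccGGACcgagcgcccgggc
Misp3, gap: tctcggctcagaggcctccaggtgtgtttt
Pawr, covered: gggccgcagctcgGGACccagcgccaggaa
Pawr, gap: gcccggcgccctgaactgcgctcacggctc
Mis12, covered: cgagacggtgtgaGGACctctcatgtttat
Mis12, gap: ggccgcggggtagtacgggagctggagctg
Tsen34, gap: ggagctgagggggagcggaacggtgGGACc

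The Copa stretches, from the gene of a coatomer subunit, lie at chr1:172082858-172082887 and chr1:172082753-172082782 on the plus strand. Those of Tlnrd1 lie on the minus strand at chr7:83884225-83884254 and chr7:83883812-83883841. Use1, which encodes a SNARE protein of the endoplasmic reticulum, has them on the plus strand at chr8:71367026-71367055 and chr8:71367131-71367160. Misp3 has them on the minus strand at chr8:84011821-84011850 and chr8:84011730-84011759. Pawr, a pro-apoptotic regulator, has them on the plus strand at chr10:108333203-108333232 and chr10:108333047-108333076. Mis12, a kinetochore subunit, has them on the plus strand at chr11:71019970-71019999 and chr11:71019864-71019893. The stretch of Tsen34, which encodes a subunit of the tRNA splicing endonuclease, lies on the plus strand at chr7:3694382-3694411.

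Counts were made over the members that met 2 or more separate Dox regions, where these members reached into the windows. Positions were pooled over peaks, and a stretch shared by several of these members was counted once for each. The intervals treat positions as independent and do not hold the spread between genes. GGAC was counted on the transcribed strand only, whatever base followed it, and its reverse complement GTCC was not. Covered parts held 42 GGAC in 6456 positions, or 6.51 per 1000 (exact 95% interval 4.69 to 8.78). Gaps held 6 in 2006 positions, or 2.99 per 1000 (1.1 to 6.5). Uncovered outer ends held 9 in 1880 positions, or 4.79 per 1000 (2.19 to 9.07). All 3 intervals overlap, and G and C made up 66% of covered parts, 65.6% of gaps and 68.8% of outer ends. Of 10 gaps that lay wholly inside a window, 1 held GGAC. As background, 65.6% of 32851 windows of 300 bases held GGAC on the gene's strand (87.7% on either strand). The first 59 bases held it in 18.8% of windows (34.4% on either strand), and the last 59 bases in 21.4%. Those first 59 bases lie before the gene's start, and the 10 gaps were 58 to 179 nt long.

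The name "split" did not describe most members. Among the 1157 members, 4.57% of the 25306 control peaks under 1000 nt (exact 95% interval 4.32 to 4.84), 730 (63.1%, 60.2 to 65.9) met Dox peaks that overlapped each other and formed 1 continuous region. Only 427 (36.9%, 34.1 to 39.8) met 2 or more Dox regions with uncovered exon between them. These 427, on 407 identifiers, are called split peaks from here on, and they were 1.69% of the control peaks under 1000 nt (1.53 to 1.85). In 71 of them a Dox region shared exactly 1 nt with the control peak, and 357 peaks were split when at least 20 shared nt were required. In stricter lists the number of split peaks was lower, at 123 in the authors' shorter lists and 122 at a log10 FDR of -5 or lower. Since the overlap with several Dox peaks chose the members, these shares are a description.

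The 730 unsplit members were mostly stretches of genome that the tables list more than once. Of them, 706 shared exonic nucleotides with another control peak, against 23 of the 427 split peaks, and 561 met Dox peaks of several gene identifiers. Dox peaks covered 482 of the unsplit members along their whole length. The case with most Dox peaks was the protocadherin cluster on chromosome 18, between 36955120 and 37839929, where clustered cell adhesion genes share their 3′ exons. There 27 members, 1 for each of 27 identifiers, each met the same number of Dox peaks, 27, at Dox folds of 2 to 2.2 and control folds of 1.79 to 2.37. Sox12, a SoxC transcription factor gene, was listed as chr2:152396757-152397596 and again as chr2:152396778-152397615, with control folds of 45.8 and 65.8, and both were wholly covered by Dox peaks. Nova2, a neuronal splicing regulator, had a control fold of 84.9 in an unsplit member that was also wholly covered.

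Several checks set the frame for the values. All 8 of the stem cell markers examined (Pou5f1, Sox2, Nanog, Esrrb, Zfp42, Klf4, Tfcp2l1, Tbx3) had a Dox peak and a control peak, and of 6 fibroblast markers (Col1a1, Col1a2, Col3a1, Thy1, Pdgfrb, Vim) 2 had a Dox peak and 3 a control peak. A peak does not measure a gene's level. Setd2 itself had 6 Dox peaks and 10 control peaks, none of them a member, and the strength of the knockdown was not measured by these tables. Each table pools both replicates, so no spread between replicates and no test between conditions can be given, and the depth of each library is unknown. The Dox list held 27609 distinct peaks and the control list held 25812. The scaling of IP against input is stated for neither list, so folds in the 2 lists may differ in scale.

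The split peaks were long and strongly enriched in control cells. Their median exonic width was 541 nt (quartiles 390 and 750, range 61 to 991), against 241 nt for the 19168 control peaks that met exactly 1 Dox peak. Their median control fold, IP over input, was 8.61 (quartiles 5.13 and 14.8, range 1.3 to 80.0), against 4.39 for the peaks with exactly 1 Dox peak. The share of peaks that were split climbed with width. It was 0.179% under 150 nt, 0.375% at 150 to 250 nt, 1.17% at 250 to 400 nt, 4.61% (3.86 to 5.47) at 400 to 600 nt, 9.23% (7.53 to 11.2) at 600 to 800 nt and 17.0% (13.9 to 20.5) at 800 to 1000 nt. A longer peak has more room for a gap, and the part of this in the rise was not tested. For the unsplit members the shares ran less steeply, with 2.06% under 150 nt and 4.11% at 800 to 1000 nt. At the width limit, Frat2, Rsf1 and Clip1 lay just inside at 989, 990 and 991 nt, and Trmt61a, Llph and Zfp839 just outside at 1009, 1012 and 1014 nt, each with 2 Dox peaks.

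**Figure D1:**
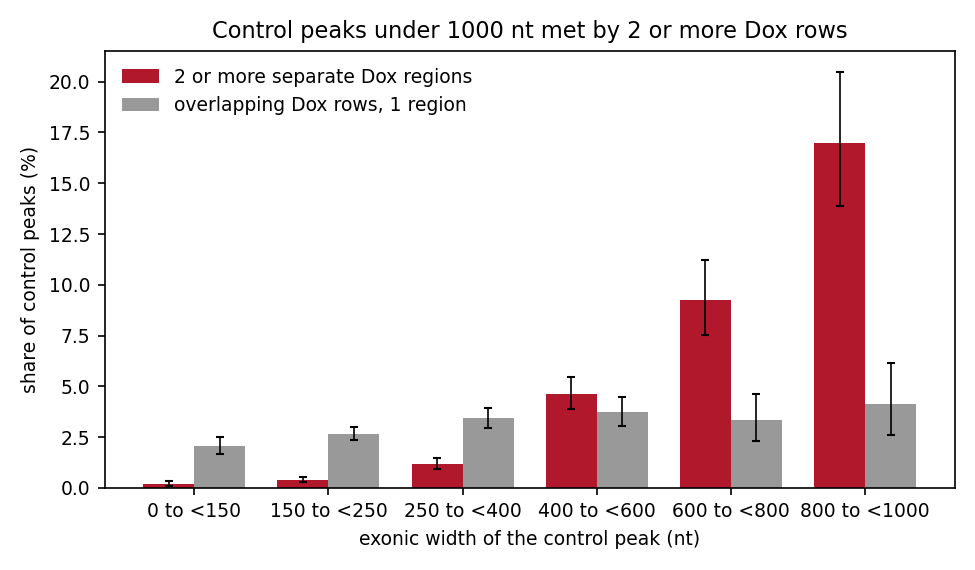
Percent of control peaks under 1000 nt in each class of exonic width (nt, horizontal axis) that met 2 or more separate Dox regions (red) or overlapping Dox peaks forming 1 region (grey), with exact 95% binomial intervals as error bars. The split share runs from 0.179% in the narrowest class to 17.0% in the widest, while the share of unsplit members stays between 2.06% and 4.11%.

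Within classes of like width, split peaks had weaker statistical support, and in the middle classes a higher control fold. Support is given as the log10 of the peak's false discovery rate (FDR) in the authors' table, where a lower value means stronger support. At 250 to 400 nt the median control fold of split peaks was 5.77 (95% interval from order statistics 5.17 to 7.28) and the log10 FDR -6.62, against 5.44 (5.31 to 5.54) and -28.9 for control peaks of that width with exactly 1 Dox peak, so the folds were not told apart. At 400 to 600 nt, split peaks had medians of 8.86 (7.51 to 10) in control fold and -14.2 in log10 FDR, against 6.93 (6.72 to 7.11) and -53.2. At 600 to 800 nt they had 10.8 (9.42 to 12.3) and -36.5, against 8.16 (7.82 to 8.66) and -79.3. At 800 to 1000 nt they had 11.5 (9.58 to 14.8) and -45.4, against 10 (9.26 to 10.6) and -134, and the intervals of the folds overlap. The split share within 400 to 600 nt was 1.55% at a log10 FDR of -50 or lower, 4.42% from -50 to -20, 9.69% from -20 to -5, and 25.5% above -5, where 14 of 55 peaks were split. Read counts behind the peaks were not analysed here, and the part of support in the split was not tested.

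The gaps sat inside the peaks and were short. The 427 split peaks summed to 241932 nt of exon, of which 64115 nt (26.5%) were under no Dox peak. Gaps between Dox regions took 47708 nt (74.4% of the uncovered length), the 5′ ends 11304 nt (17.6%) and the 3′ ends 5103 nt (7.96%). The median split peak lost 119 nt (quartiles 83 and 179, range 45 to 618), or 26.1% of its width (quartiles 15.9 and 38.7). In the unsplit members 15659 of 220134 nt (7.11%) were uncovered. Losses over 50% of the width were seen in 52 split peaks and losses under 10% in 37.

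Coverage ran unevenly along the split peaks. With each peak cut into 20 equal bins from 5′ to 3′, Dox peaks covered 58.5% of the first bin, 57.3% of bin 10, the lowest bin, and 75% of the last bin. Control peaks of at least 250 nt with exactly 1 Dox peak were covered at 68.8% in the first bin, 96.8% in bin 10 and 79.5% in the last. The dip in the middle follows from how split peaks were chosen, and coverage at the ends is read from the same bounds, so both are descriptions. The 5′ end was covered in 283 split peaks and the 3′ end in 345. Both ends were covered in 233 and neither in 32.

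**Figure D2:**
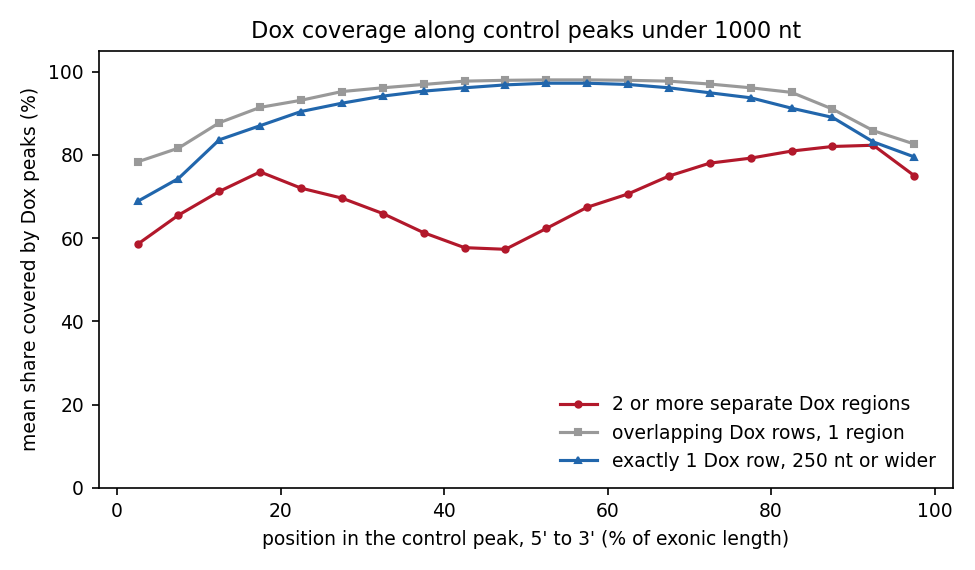
Percent of exonic length covered by Dox peaks in 20 bins from the 5′ end to the 3′ end of the control peak, for split peaks, for unsplit members and for control peaks of at least 250 nt with exactly 1 Dox peak. Split peaks dip to 57.3% in bin 10, where the peaks with 1 Dox peak reach 96.8%.

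Most split peaks had a single gap. Of the 427, 415 had 1 gap and 12 had more, for 439 gaps with a median length of 89 nt (quartiles 59 and 148, range 13 to 388). Gap lengths were stepped: 188 gaps (42.8%) were 56 to 59 nt long, and 420 (95.7%) were 1 to 3 nt short of a multiple of 30 nt. Peak bounds in these tables thus move in steps of about 30 nt, and the commonest gap is 2 such steps. Gaps over 200 nt numbered 46 and gaps under 56 nt numbered 5. With each peak cut into 3 equal parts, gap centres lay in the 5′ part in 98 cases, the middle part in 255 and the 3′ part in 86, with a median centre at 47.3% of the width. Of the 236 gaps in peaks with several exonic blocks, 93 included an exon junction.

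**Figure D3:**
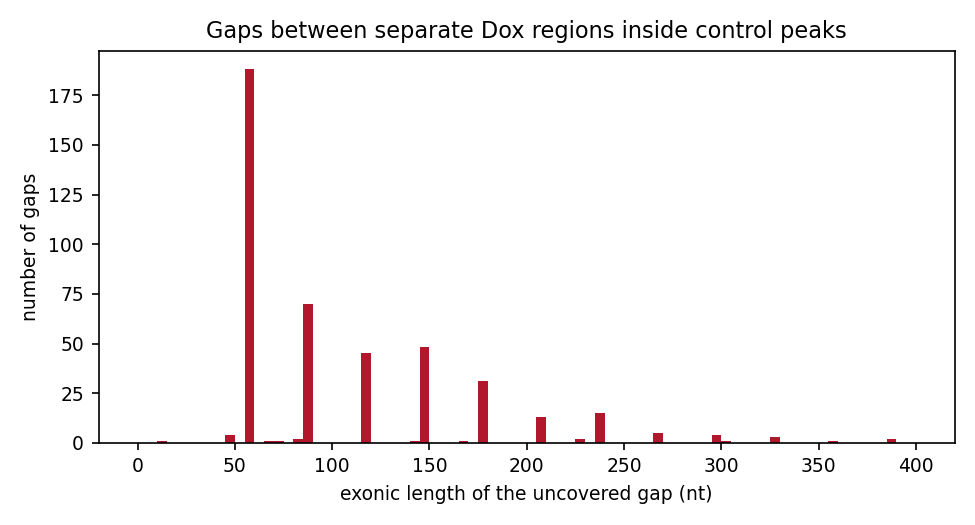
Number of gaps (vertical axis) by length in exonic nt (horizontal axis) for the 439 gaps between Dox regions in split peaks. Bars stand at steps of about 30 nt, and the tallest group, at 56 to 59 nt, holds 188 gaps.

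Some gaps were whole control peaks. In 5 split peaks the Dox regions touched the control peak by 1 nt at either end and left the rest uncovered, and these had weak support, with a log10 FDR of -2.58 to -1.46. The gene Emilin1, which encodes a glycoprotein of elastic fibres, had a pair of them. In its wider one, chr5:30918188-30918577, the Dox peaks to either side had folds of 5.97 and 4.7, against a control fold of 8.61, and 99.5% of the peak was uncovered. In Tesk1, which encodes a kinase that phosphorylates cofilin, the Dox folds were 5.97 and 14.1, against 6.15 in control cells. Here enrichment was called on different neighbouring stretches in Dox and control cells, not on parts of the same peak. In 71 split peaks at least 1 of the Dox regions shared exactly 1 nt with the control peak.

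Dox folds were mostly below the control fold of the peak they overlapped. In the 394 split peaks met by exactly 2 separate Dox peaks, the higher Dox fold had a median of 5.19 and the lower 3.00, against a control fold of 8.68. The control fold exceeded both Dox folds in 311 of them (78.9%), lay between them in 63 and was below both in 20. Among control peaks with exactly 1 Dox peak, 61.1% had a control fold above the Dox fold, which is the background for that share. The split peaks were wider, at a median of 539 nt against 241 nt, and width moved with the share in both kinds. At 250 to 400 nt the control fold was above both Dox folds in 71.6% of 67 split peaks (59.3 to 82.0), and above the Dox fold in 71.9% of 5225 peaks with exactly 1 Dox peak (70.6 to 73.1). At 400 to 600 nt the shares were 79.8% (71.3 to 86.8) and 76.5% (74.8 to 78.1), and at 600 to 1000 nt 91.6% (86.3 to 95.3) and 85.0% (83.0 to 86.9). Under 250 nt they were 42.6% (28.3 to 57.8) and 48.7% (47.7 to 49.6). At like width the intervals thus overlapped in all 4 classes, though only slightly at 600 to 1000 nt. The shares are unlike measures, since the control fold had to exceed 2 Dox folds in split peaks and 1 in the others. The ratio of control fold to the higher Dox fold had a median of 1.65 (quartiles 1.07 and 2.44), against 1.16 (quartiles 0.818 and 1.71) in peaks with exactly 1 Dox peak. By width, under 250 nt and then in the 3 wider classes, it was 0.908, 1.42, 1.79 and 1.96 in split peaks, against 0.983, 1.36, 1.45 and 1.53. The folds are the authors' values, and the rule used called bounds, not folds. Bounds and folds come from the same IP and input libraries, so the folds are not independent of how the peaks were chosen.

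Within a pair, the Dox peaks differed in both fold and width. The ratio of the higher to the lower fold had a median of 1.53 (quartiles 1.23 and 2.18), and that of the wider to the narrower peak a median of 1.99 (quartiles 1.37 and 3.14). Neither ratio can fall below 1, so both are a description. The 5′ Dox peak had medians of 211 nt in width, 4.09 in fold and -4.0 in log10 FDR, and the 3′ Dox peak 270 nt, 3.84 and -5.79. The 3′ Dox peak was the wider in 223 of the 394 and the 5′ one in 150, with 21 equal. It also had the lower FDR in 233, against 159 for the 5′ one and 2 equal. The higher fold fell on the 5′ side in 193 and on the 3′ side in 197, with 4 equal. Summed Dox width had a median of 541 nt, against 539 nt for the control peak, and many Dox peaks reached past the control peak's ends. Support for the Dox peaks was often low: both reached a log10 FDR of -5 or lower in 118, 1 of them in 160 and neither in 116.

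Folds differed with the number of Dox peaks that reached past the control peak. Where neither reached outside (101 peaks), the higher and lower Dox folds had medians of 4.34 and 2.71, against a control fold of 10.1, and the control fold was above both in 92.1%. Where 1 reached outside (178 peaks), they were 5.21 and 2.96, against 9.65, with 86.0% above both. Where both did (115 peaks), they were 5.42 and 3.37, against 5.98, with 56.5% above both. The control peaks of the last kind were also narrower, at a median of 391 nt, against 596 nt where neither Dox peak reached outside. Their support was weaker too, at a median log10 FDR of -7.61, against -21.4 where neither did and -24.8 where 1 did. The part of width and support in the folds was not tested.

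**Figure D4:**
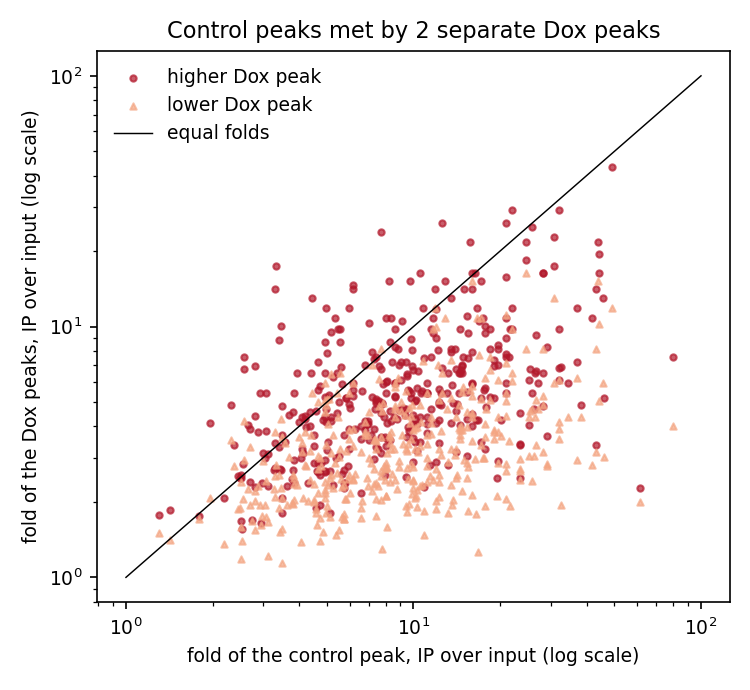
Fold of the Dox peaks against the fold of the control peak they overlap, both IP over input on log axes, for the 394 split peaks met by exactly 2 separate Dox peaks (circles for the higher Dox fold, triangles for the lower). The control fold is above both Dox folds in 311 peaks, so most points lie below the line of equal fold.

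Split peaks were found along whole genes, and among wide peaks the split share was higher at the 5′ end of the gene. Position was read against the span of a gene's RefSeq interval, with the first 500 nt as the 5′ end and the last 1000 nt as the 3′ end. Of 377 split peaks in genes of at least 3000 nt, 56 (14.9%, 11.4 to 18.9) lay at the 5′ end, 289 (76.7%) between and 32 (8.49%, 5.88 to 11.8) at the 3′ end. For all control peaks under 1000 nt the shares were 13.4%, 72.8% and 13.8%. At 400 to 1000 nt, 44 of 307 peaks at the 5′ end were split (14.3%, 10.6 to 18.8), 209 of 3015 between (6.93%, 6.05 to 7.9) and 21 of 505 at the 3′ end (4.16%, 2.59 to 6.29). The order held among the best supported peaks of that width, at a log10 FDR of -50 or lower: 9.62% (5.48 to 15.4), 4.47% (3.54 to 5.56) and 1.35% (0.369 to 3.42). The gene span includes introns, and coding and untranslated parts were not separated here.

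Among genes of the m6A machinery, Rbm15 and Zc3h13 had split peaks, 2 of the 66 control peaks of that list (3.03%). The share over all control peaks under 1000 nt was 1.69%, and a count of 2 is only a description. RBM15 is the RNA-binding adaptor that brings the writer complex to its targets, and its gene had a control peak of 958 nt at chr3:107330501-107331458 (minus strand). The Dox peaks there had folds of 6.73 and 4.0, against 14.6 in control cells, and log10 FDRs of -55.1 and -9.28, against -149. The uncovered 149 nt ran from 107330591 to 107330739. ZC3H13, a regulatory subunit that holds the writer complex in the nucleus, had a control peak of 688 nt at chr14:75321787-75323793 (plus strand). Its Dox peaks had folds of 9.97 and 11.8, against 12.0 in control cells, and the 3′ one shared only 1 nt of its 986 nt with the control peak. The genes of RBM15B, an RBM15 paralogue, and YTHDC1, a nuclear m6A reader, had unsplit members that were wholly covered.

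Among genes of the H3K36 list, 1 of 90 control peaks (1.11%) was split, in Kdm4a, a demethylase of H3K9 and H3K36. It was 810 nt at chr4:118153255-118162577 (minus strand), with Dox folds of 5.55 and 7.23, against a control fold of 9.4, and 149 nt uncovered. Among chromatin genes 3 of 206 (1.46%) were split. The share over all control peaks under 1000 nt was 1.69%, and both list counts are small. The gene of EED, the core subunit of Polycomb repressive complex 2 that binds H3K27me3, had a control peak of 719 nt at the gene's 5′ end (chr7:89976903-89980983, minus strand). Its Dox folds were 6.51 and 6.86, against 12.6 in control cells, with a gap of 59 nt. Ehmt2, the gene of the H3K9 methyltransferase G9a, had the largest uncovered part of these genes. Its control peak of 781 nt at chr17:34899032-34902267 (plus strand) was 57.5% uncovered, with Dox folds of 2.96 and 3.38, against 23.4. The log10 FDRs of these Dox peaks were -3.39 and -26.0, against -94.6 for the control peak. The third, in the H3K4 methyltransferase gene Kmt2b (named after its values were seen), had a Dox peak that shared 1 nt (fold 2.07) and another that covered most of it (fold 3.13), against a control fold of 4.12.

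Nes, which encodes the neural progenitor filament nestin, had 2 split peaks that differed in direction of fold, and they were the split peaks among 25 control peaks of the lineage list (8.0%). In the first, chr3:87971198-87973070 (plus strand, 870 nt), the Dox folds were 4.61 and 6.78, against 25.5 in control cells, with a gap of 328 nt. These Dox peaks had log10 FDRs of -6.3 and -3.92. In the second, chr3:87976464-87977154 (691 nt), both Dox folds, 6.47 and 9.52, were above the control fold of 5.17, and the gap was 59 nt. Lrp5, a WNT co-receptor gene, held the split peak among 88 of the signalling list. It had Dox folds of 1.36 and 2.08, against 2.2 in control cells, and a gap of 149 nt. The log10 FDRs of its Dox peaks were -2.84 and -8.33. No member was found among 97 control peaks of the pluripotency list, 54 of the cell cycle and p53 list or 109 of the mRNA processing list. Over all lists 12 of 735 control peaks (1.63%) were members, against 4.57% of all control peaks under 1000 nt, and 9 (1.22%) were split, against 1.69%. The counts in each list are small and are a description. The vimentin gene Vim, among the fibroblast markers and also named after its values were seen, had 1 split peak, with Dox folds of 2.04 and 2.87, against 4.51 in control cells.

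**Figure D5:**
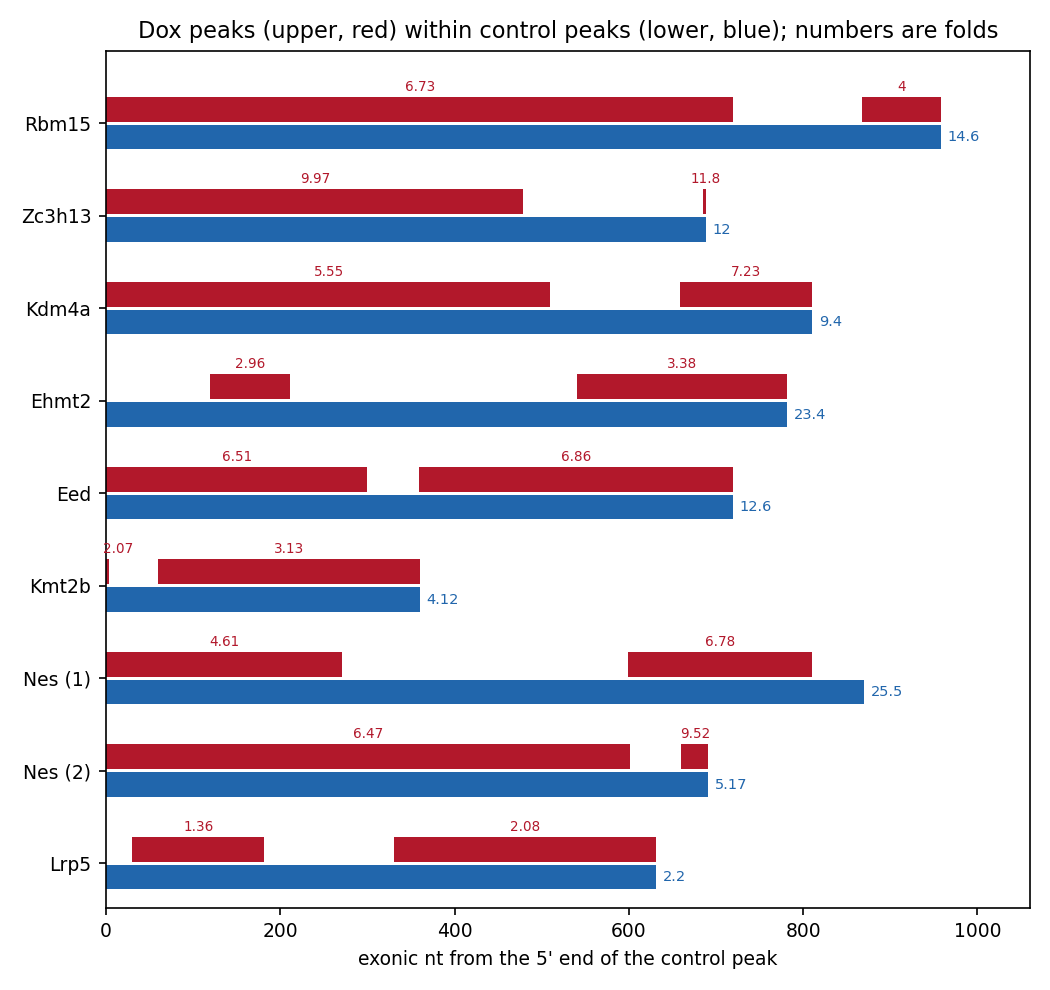
Maps of 9 split peaks in genes of the lists, in exonic nt from the 5′ end of the control peak, with the covered stretches of the Dox peaks drawn above the control peak and their folds (IP over input) printed beside them. A stretch of 1 nt, in Zc3h13 and Kmt2b, is drawn 3 nt wide so that it can be seen.

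In 11 split peaks the authors' table writes the control log10 FDR as minus infinity, those of Set, Dnajc8, Fiz1 and Trim27 among them. Set, the gene of a histone chaperone and inhibitor of protein phosphatase 2A, had an 899 nt control peak at chr2:30062038-30067235 (plus strand) with 3 Dox regions. Their folds were 4.57, 5.42 and 2.05, against 25.6 in control cells, and the last 2 had log10 FDRs of only -4.45 and -4.18. Dnajc8, which encodes a J-domain protein tied to splicing, had Dox folds of 4.42 and 7.75, against 20.9. Fiz1 had Dox folds of 1.26 and 4.23, against 16.8, and the weaker Dox peak, at a log10 FDR of -2.32, shared 1 nt. Trim27, an E3 ligase gene, had 5.51 and 3.98, against 15.3, with a gap of 303 nt. In these 4 genes, those of highest control fold among the 11, the control fold stood above every Dox fold. In Eif2b4, a translation initiation factor subunit gene also among the 11, the 5′ Dox fold was 15.2 and the 3′ one 4.11, against 9.73 in control cells.

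The highest control folds among split peaks at a log10 FDR of -5 or lower were in Tenm3, Fbxw8, Sowahb and Phlda3. Tenm3, a teneurin adhesion receptor gene, had Dox folds of 4.0 and 7.59, against 80.0 in control cells. Fbxw8, which encodes a ubiquitin ligase subunit, had Dox folds of 2.27 and 2.0, against 61.5. Both Dox peaks were weakly supported, at log10 FDRs of -2.43 and -2.15. Phlda3, a p53 target that restrains AKT, had 5.21 and 3.03, against 46.1. In Sowahb a Dox fold of 43.4 on the 3′ side was close to the control fold of 49.2, and the other was 11.9. These were ranked by control fold, so high control values are built into the choice. The control log10 FDR was -27.1 in Tenm3, -19.4 in Fbxw8, -13.5 in Sowahb and -188 in Phlda3. Input reads behind these folds were not seen, so a high fold may rest on few of them.

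The largest uncovered lengths between outermost Dox peaks, summed over gaps, included 473 nt in Hmgn5, 416 nt in Fbxl15, 388 nt in C77080 and 359 nt in Sgsm1. Hmgn5, which encodes a nucleosome-binding protein, had 3 Dox regions with folds of 6.51, 7.59 and 5.15, against 11.1 in control cells, and 69.1% of its peak was uncovered. Fbxl15, an F-box protein gene, had 3 with folds of 2.94, 3.06 and 2.12, against 11.8. In both genes every Dox region had a log10 FDR above -5.

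Control peaks with 3 Dox regions numbered 12, in Set, Fscn1, Cbx7, Cdkn1c, Unc5b, Ppfia4, Chd9, Klf13, Tbkbp1, Znhit2, Hmgn5 and Fbxl15, named here after their values were seen. Cdkn1c, the imprinted gene of the cyclin-dependent kinase inhibitor p57, had Dox folds of 7.92, 2.94 and 3.13, against 33.4 in control cells, and 208 of its 781 nt were uncovered. Cbx7, which encodes a Polycomb subunit that reads H3K27me3, had Dox folds of 1.81, 4.14 and 4.79, against 8.0, with 297 of 898 nt uncovered. Unc5b, a netrin receptor gene, was the single gene with 3 split peaks, out of 4 control and 8 Dox peaks. The one at its 5′ end, chr10:60783180-60831551 (minus strand), had Dox folds of 15.2, 5.78 and 3.13, against 21.2. The others had Dox folds of 1.8 and 4.15 against 4.96, and of 1.64 and 1.62 against 2.96. In all 3 of them the control fold stood above every Dox fold.

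The genes with split peaks held more Dox than control peaks. Of 407 identifiers, 261 (64.1%) had more Dox than control peaks, 97 had equal numbers and 49 had fewer, for 1865 Dox and 1505 control peaks in all. A split adds a Dox peak to the count, so the rule favours this direction. Over the 10481 identifiers with peaks in both lists, 28.7% had more Dox peaks.

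The reverse case was more frequent than the split. Dox peaks under 1000 nt that met 2 or more control peaks numbered 1690 of 26625 (6.35%), against the 1157 control peaks (4.57%) that met 2 or more Dox peaks. With separate regions required, 1034 Dox peaks (3.88%) met 2 or more control regions, against 427 control peaks (1.69%). The 1073 gaps in those Dox peaks had a median of 118 nt, against 89 nt in the split control peaks. Width moved with this difference. Under 250 nt, Dox peaks met several control peaks in 2.13% of cases, against 2.77% for control peaks that met several Dox peaks. At 250 to 400 nt the shares were 4.32% and 4.59%, and at 400 to 500 nt 9.18% and 6.55%. At 500 to 600 nt they were 15% and 10.9%, and at 800 to 1000 nt 40.4% and 21.1%. With the width limit lowered to 500 nt, 759 of 22817 Dox peaks (3.33%) were of the reverse case, against 793 of 22620 control peaks (3.51%), so the direction turned. By number of peaks met, the greater frequency of the reverse case was thus seen from 400 nt upward. For separate regions the control share minus the Dox share kept its sign at the 500 nt limit. It was only -0.173 points there, and no interval was computed for it. Separate shares under 250 nt were 0.156% for Dox peaks and 0.31% for control peaks. At 250 to 400 nt they were 1.46% (1.18 to 1.79) and 1.17% (0.909 to 1.48), and at 400 to 500 nt 5.03% and 3.4%. Dox peaks under 1000 nt also had the larger median width, 240 nt against 211 nt in control cells.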

How the data were processed

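Per the labels' protocols, messenger RNA was sheared by sonication and made into 8 stranded libraries, 4 for each condition. FastQC 0.11.5, TopHat2 2.1.1 and mm10 appear in the submitters' processing notes. The deposited tables carry exomePeak in their names, with no version, settings or annotation given in the sources used here. The p-value of each peak, the log10 of its p and FDR (scores with no lower bound), and the fold, a ratio of IP over input, are the authors' columns, per the file headers. Each table pools both replicates, so depth and spread are unknown.

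Exact duplicate rows, 3 in each table, were dropped. Overlaps were taken over exonic blocks on the same strand with bedtools 2.31.1 and checked against a nucleotide count, and the overlap and coverage steps made 0 errors on 300 simulated peaks. Dox peaks that overlapped each other were merged to count separate regions. Intervals of percentages are exact 95% binomial ones (Clopper-Pearson), which hold counting error alone and treat each peak as independent. Symbols were given to 10659 of 13110 identifiers by location, from RefSeq genes of GRCm38.p6, the assembly of mm10, at 50% or more of the peak midpoints, and can be wrong where genes overlap. Named genes were the extremes of support, fold, number of Dox peaks and uncovered length, and members of gene lists. Sequences are shown for 7 of the 10 genes with a gap wholly inside a RefSeq window, those with a GGAC in a covered stretch or in the gap. The members and lists were chosen with earlier results of these data known. Alternatives were other overlap minimums, width limits, end lengths, thresholds and the authors' shorter lists, which hold the peaks past a p of 1e-05 and a fold of 2.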

Additional observations from a re-analysis of the deposited data

How the results depend on the processing

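Of 111 values recomputed for 12 results, 66 held, 44 moved and 1 turned its direction. The main values were 1157 members (4.57%), an uncovered share of 9.94% and an inner gap of 0 nt at the median member, median folds of 3.81 in Dox and 5.54 in control peaks, 72.3% of members between the gene ends, 13% at the 3′ end and 14.8% at the 5′ end, and 427 split peaks. With an overlap of at least 20 nt the share was 4.29%, with 357 split peaks. With an overlap of 50% of the shorter peak it was 3.82%, with 6.48% uncovered and 280 split peaks. In the authors' shorter lists there were 605 members (3.69%) with 0% uncovered, a Dox fold of 4.14 and 123 split peaks. At a fold of at least 4 there were 360 members (2.49%), folds of 6.05 in Dox and 9.7 in control peaks, and 125 split peaks. At a log10 FDR of -5 or lower there were 634 members (3.94%) with 0% uncovered and 122 split peaks. Without a width limit the share was 4.91% and the folds 4.0 in Dox and 6.15 in control peaks. With a limit of 500 nt the share was 3.51%, with 0% uncovered, folds of 3.55 in Dox and 4.29 in control peaks, 68.6% between the ends, 15.8% at the 3′ end and 170 split peaks. With overlapping Dox peaks merged there were 427 members (1.69%), 26.1% uncovered, a gap of 89 nt, a control fold of 8.61, 76.7% between the ends and 8.49% at the 3′ end. With Dox peaks of the same identifier only, there were 603 members (2.38%), 20.8% uncovered, a gap of 59 nt and folds of 4.0 in Dox and 7.78 in control peaks. With gene ends of 300 and 500 nt, 87.0% lay between, 4.47% at the 3′ end and 8.49% at the 5′ end. The share of control peaks that met several Dox peaks minus the share of Dox peaks in the reverse case was -1.78 points. It was 0.179, the opposite direction, with a width limit of 500 nt, and lay between -3.26 and -1.67 in the other 8 settings. For separate regions it was -2.2, and -0.173 at 500 nt. The results on separate regions, and this difference outside the shorter lists and the fold and FDR limits, were chosen after seeing the data. No paired analysis was possible because each list pools both replicates, and for the same reason no replicate could be left out. Depth is unknown, so a gap can be a stretch where a peak was not detectable.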
